A study of Mus musculus with 12 samples.

Results

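The 40 genes described here encode the machinery that copies DNA and the regulators of the step from G1 into S phase of the cell cycle. They were listed by name, at a time when earlier results of these data were known, and all 40 were found among the 41128 genes of the deposited count table. All 40 also passed the filter on low counts and were tested, out of 15347 genes tested in all. RNA came from cultured mouse haemogenic endothelium, endothelial cells able to form blood, in 12 libraries. The cells were grown from embryonic stem (ES) cells of an Ainv18 derivative, a line built to carry transgenes switched on by doxycycline (Dox), with Sox7 as the transgene (iSox7). On day 3.5 of embryoid body differentiation, cells carrying the VEGF receptor FLK1 were isolated and then grown on gelatin in liquid blast medium for 48 h. Dox was then given at 1 µg/ml for 6, 12 or 24 h, and the matched groups were grown for the same hours without it, with 2 libraries in each of the 6 groups. The cells without Dox carry the same inducible Sox7, and no library here comes from cells that lack the transgene and received Dox. The action of Dox itself and that of SOX7 can therefore not be told apart in these data.

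Replication starts in G1, when the origin recognition complex (ORC), CDC6 and CDT1 load the ring-shaped MCM2-7 helicase onto DNA, a step called licensing. On entry into S phase, CDC45 and the GINS complex join MCM2-7 to form the active helicase, MCM10 helps to start it, and DNA polymerases, the sliding clamp PCNA and its loader RFC follow it. Cyclin E with CDK2 drives this transition, and E2F transcription factors, held back by the RB protein, switch on many of the genes. SOX7 is a transcription factor of the SOXF family that marks endothelium, and in mouse ES cell cultures its level falls as blood cells emerge.

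Total counts were 13485804 to 35250074 per library, and the libraries fell into 6 shallow ones of at most 15429846 counts and 6 deep ones of at least 27516106 counts, with 1 of each in every group. Sox7, the induced gene, had 326 and 314 CPM (counts scaled to the library's total) with Dox against 77.9 and 81.7 CPM without at 6 h. It had 379 and 376 CPM with Dox against 55.6 and 68.8 CPM without at 12 h, and 337 and 331 CPM with Dox against 52.5 and 52.1 CPM without at 24 h. Every library with Dox lay above every library without. The 7 endothelial markers had no gene at 0 in every library, and their summed level was 1913 to 2001 CPM with Dox against 1593 to 1595 CPM without at 24 h. The 5 smooth muscle and mesenchyme markers summed higher, to 8822 to 8868 CPM with Dox and 9382 to 9650 CPM without at that hour. Nothing in the labels makes the replicates separate cultures, and p-values therefore cover the spread among these libraries alone, which may be technical. On the opposite strand, 8 of the 40 genes (Mcm7, Cdc45, Gins2, Rfc4, Rfc5, Fen1, Lig1 and Ccne2) overlap a gene with more than 10% of their own counts, and if counting ignored the strand, reads from the shared bases cannot be told apart. The groups of different hours were also harvested at different times, so a change with the hour and a difference between harvests cannot be told apart.

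Most of the 40 genes were moderately to highly expressed on the authors' RPKM scale, reads scaled by gene length and sequencing depth. The median level of the 40 over the 12 libraries was 9.03 RPKM, against 5.89 RPKM for all tested genes. Of the 40, 29 lay above the median tested gene. The highest levels belonged to Orc6, a subunit of ORC (54.9 RPKM), and to both subunits of ribonucleotide reductase, which makes deoxynucleotides, Rrm1 (49.9 RPKM) and Rrm2 (47.3 RPKM). The helicase genes Mcm2, Mcm4, Mcm5 and Mcm3 followed with 45.4, 44.2, 40.6 and 39.0 RPKM. Mcm6 stood at 30.0 RPKM and Mcm7 at 16.4 RPKM. In CPM, which is not divided by gene length, Mcm6 lay near Mcm2 to Mcm5. Its mean at 6 h with Dox was 170 CPM against 176 to 186 CPM for those genes, while Mcm7 had 91.9 CPM. The lowest values by RPKM were those of Pole, the catalytic subunit of the leading-strand polymerase (2.84 RPKM), and Tk1, thymidine kinase (2.79 RPKM). In CPM at 6 h with Dox they had means of 38.8 and 19.2 CPM, above the 10.7 CPM of Gins1. The sources used here do not list the gene lengths behind these values, on which an order by RPKM depends.

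Promoter sequences are shown for Mcm5, Mcm6 and Tyms, whose levels differed between Dox and no Dox at 1 of the 3 hours. Gins3 and Pola1 were added because their windows held an E2F match, so their matches were fixed by this choice. Rrm2 was added because it was lower in all 4 steps of the time courses described below. Windows that reached well into the gene as deposited were not printed. RefSeq promoters of build GRCm38.p6 were found for 32 of the 40 genes, and each window printed here is the 200 bases before the annotated start, 5′ to 3′ on the gene's own strand. Capitals mark matches to the E2F site, searched as TTTCGCGC, TTTCCCGC, TTTGGCGC and TTTGCCGC, and to the CCAAT box, searched as CCAAT. Both were searched on both strands, so GCGGGAAA and ATTGG in capitals are the same motifs on the other strand, and overlapping matches run together. The windows are chr8:75109309-75109508 (plus strand) for Mcm5, chr1:128359706-128359905 (minus strand) for Mcm6, chr5:30073626-30073825 (minus strand) for Tyms, chr8:95633359-95633558 (plus strand) for Gins3, chrX:93632156-93632355 (minus strand) for Pola1 and chr12:24708054-24708253 (plus strand) for Rrm2.
Mcm5: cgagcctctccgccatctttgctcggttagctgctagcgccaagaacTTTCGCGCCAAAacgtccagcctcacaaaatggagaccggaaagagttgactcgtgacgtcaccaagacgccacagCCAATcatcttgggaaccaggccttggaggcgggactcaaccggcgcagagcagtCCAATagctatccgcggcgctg
Mcm6: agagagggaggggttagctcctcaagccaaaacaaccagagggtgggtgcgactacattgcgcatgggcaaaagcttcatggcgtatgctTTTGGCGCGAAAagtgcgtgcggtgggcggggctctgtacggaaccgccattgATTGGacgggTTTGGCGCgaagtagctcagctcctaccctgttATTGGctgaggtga
Tyms: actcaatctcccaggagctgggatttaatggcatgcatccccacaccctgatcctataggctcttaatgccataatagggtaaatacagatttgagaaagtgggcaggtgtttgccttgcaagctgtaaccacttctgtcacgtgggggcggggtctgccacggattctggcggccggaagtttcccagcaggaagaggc
Gins3: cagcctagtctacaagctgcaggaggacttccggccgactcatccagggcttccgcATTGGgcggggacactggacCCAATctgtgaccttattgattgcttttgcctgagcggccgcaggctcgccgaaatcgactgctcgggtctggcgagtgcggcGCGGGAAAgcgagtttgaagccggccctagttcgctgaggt
Pola1: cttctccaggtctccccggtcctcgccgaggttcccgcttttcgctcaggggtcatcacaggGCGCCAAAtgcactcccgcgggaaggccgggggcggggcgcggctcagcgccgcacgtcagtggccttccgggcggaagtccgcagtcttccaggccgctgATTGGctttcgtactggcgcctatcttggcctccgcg
Rrm2: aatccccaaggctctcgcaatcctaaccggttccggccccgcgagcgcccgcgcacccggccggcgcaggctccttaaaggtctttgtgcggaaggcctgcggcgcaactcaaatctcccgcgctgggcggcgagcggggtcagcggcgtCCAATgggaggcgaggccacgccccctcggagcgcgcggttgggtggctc

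In the 250 bases before the start, an E2F match was present in 8 of the 32 promoters (25%), those of Cdc6, Gins3, Mcm5, Mcm6, Mcm7, Orc1, Pola1 and Rfc3. The RefSeq starts of Cdc6 and Mcm7 lay 350 and 539 bases inside the genes as deposited, so these windows lie within the genes. Those of Orc1 and Rfc3 lay 31 and 34 bases inside. Their E2F matches, 20 and 3 bases before those starts, lie within the genes as well. The share over the 10390 tested genes with a promoter was 3.52%. A CCAAT box was present in 19 of the 32 (59.4%), against 36.1% over all tested genes with a promoter. The cell cycle homology region (CHR), an element known from promoters of mitosis genes and searched as TTTGAA and TTCGAA on both strands, was in 6 of the 32 (18.8%), against 12% of all. Among 16 promoters of mitosis genes, E2F matches were in 1 (6.25%) and CHR matches in 8 (50%). A match is a run of letters and not a measured binding site. In the windows printed above, overlapping E2F matches form 2 stretches in Mcm6 and 1 in Mcm5, each beside 2 CCAAT boxes, and Tyms has neither motif. Gins4 and Ccne2, also lower with Dox at 1 hour, are named only.

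The 40 genes went down with time in culture, in cells with Dox and in cells without it. The median gene stood at 68.1% of its 6 h level after 24 h in cells with Dox and at 70.7% in cells without Dox. No gene of the 40 was called higher at any step in either course. Of all 15347 tested genes, 1356 were called higher from 6 to 12 h and 1203 from 12 to 24 h with Dox. Without Dox these were 674 and 1875. Against the fall of the 40 genes, the difference between Dox and no Dox was small. The median log2 fold change of Dox over no Dox was -0.05 at 6 h, -0.10 at 12 h and -0.12 at 24 h. At these hours 0, 2 and 3 of the 40 genes were called lower, against 0.717%, 3.51% and 6.52% of all tested genes. In bulk RNA, fewer cycling cells and less RNA per cycling cell cannot be told apart.

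**Figure D1:**
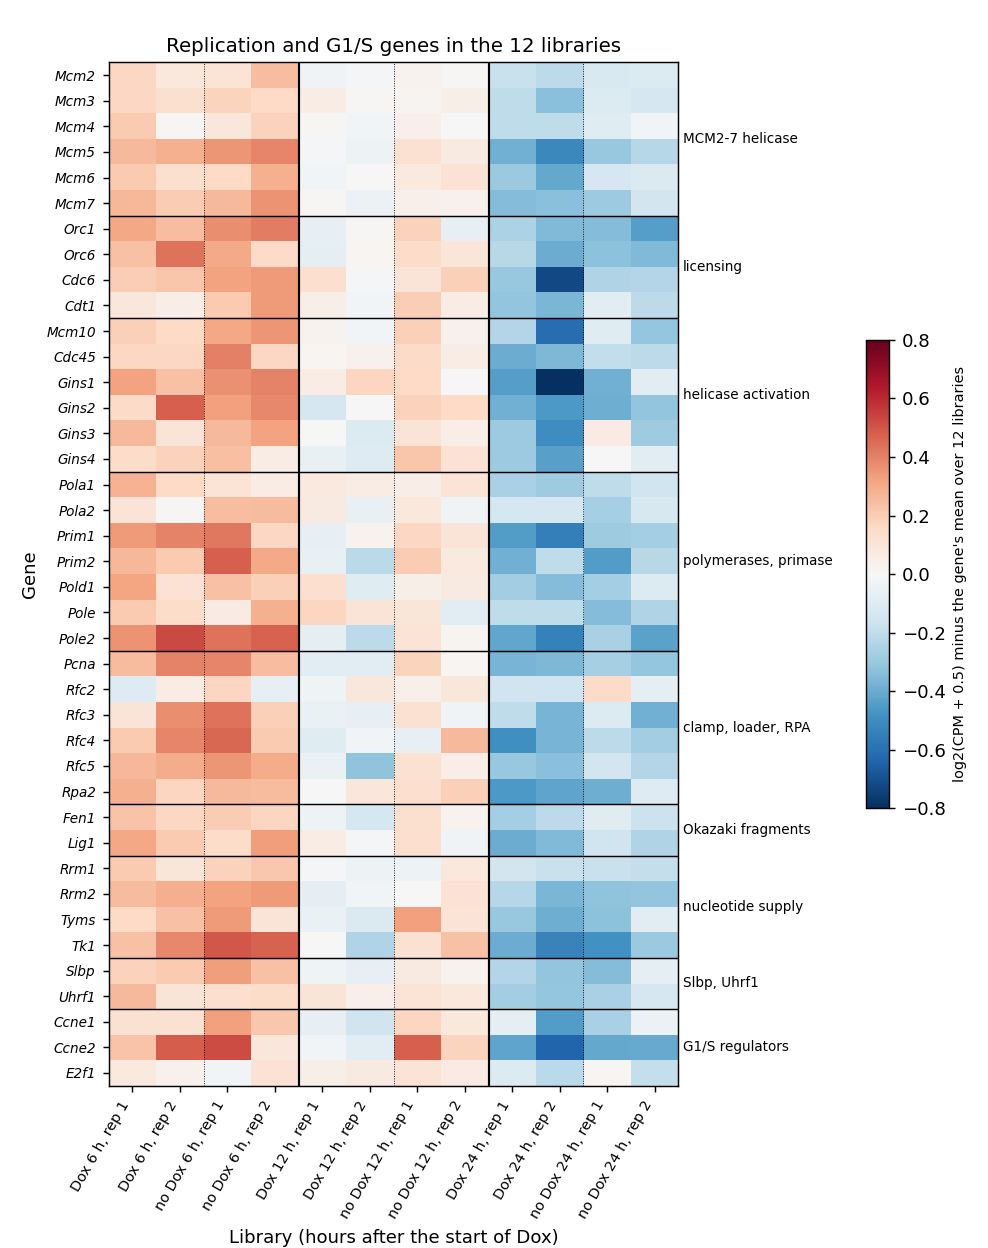
Levels of the 40 genes (rows, grouped by role) in the 12 libraries (columns, by hour, with Dox left of no Dox), as log2(CPM + 0.5) minus the gene's mean over the libraries, red above and blue below the mean. The 6 h columns are mostly red and the 24 h columns mostly blue with and without Dox, and all 40 genes lie lower at 24 h than at 6 h in every library with Dox.

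The first comparison was Dox against no Dox at 6 h, which asks what the genes do soon after Sox7 is switched on. Calls rest on edgeR's quasi-likelihood test at a Benjamini-Hochberg adjusted p under 0.05, taken over all 15347 tested genes. None of the 40 genes was called, against 1.54% of all tested genes in either direction and 0.717% in the lower direction. At an unadjusted p under 0.05 there were 2 of the 40, Cdt1 and Pola2, against 1597 of all 15347 tested genes. DESeq2 and limma also called 0 of the 40. The log2 fold changes ran from -0.20 for Pola2, the second subunit of DNA polymerase alpha, to 0.13 for Pola1, its catalytic subunit. Cdt1, the licensing factor that brings MCM2-7 to origins, had 50.03 and 48.6 CPM with Dox against 54.4 and 59.4 CPM without, a log2 fold change of -0.20 (SE 0.076, adjusted p = 0.26). The libraries with Dox all lay below those without in 15 of the 40 genes, against 19.7% of all tested genes. Every one of the 40 intervals (95%) of the log2 fold change lay within -0.5 to 0.5, which bounds the change that these libraries leave room for.

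At 12 h, Tyms and Ccne2 were lower with Dox, 2 of the 40 genes. The background was 6.76% of all tested genes called in either direction and 3.51% called lower, so the share of 2 in 40 lies near that of all genes. Tyms (ENSMUSG00000025747, chr5:30058202-30073617, minus strand) encodes thymidylate synthase, which makes the thymidine nucleotide for DNA, and had 53.8 and 51.6 CPM with Dox against 70.5 and 60.3 CPM without. The libraries did not overlap, and the log2 fold change was -0.30 (SE 0.084, adjusted p = 0.031), with an interval of -0.47 to -0.12. Ccne2 (ENSMUSG00000028212, chr4:11191351-11204779, plus strand) encodes cyclin E2, which activates CDK2 at the entry into S phase, and had 35.2 and 33.5 CPM with Dox against 50.1 and 40.5 CPM without. Here too the libraries did not overlap, with a log2 fold change of -0.38 (SE 0.11, adjusted p = 0.036). Ccne2 shares bases with Ints8 on the opposite strand, and the sources used here do not say whether counting kept the strands apart. Ints8 itself had a log2 fold change of -0.0032 (adjusted p = 0.98). Both calls were lost with DESeq2, which called 0 of the 40 genes, with limma on the RPKM values, and without either Dox library or without replicate 1 of the cells without Dox at 12 h. Over the 14 alternatives the adjusted p ran from 0.003 to 0.35 for Tyms and from 0.00066 to 0.37 for Ccne2.

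At 24 h, 3 of the 40 genes were lower with Dox, the helicase genes Mcm5 and Mcm6 and the GINS gene Gins4. The background was 11% of all tested genes in either direction and 6.52% in the lower direction, again near the share among the 40. Mcm6 (ENSMUSG00000026355, chr1:128331590-128359664, minus strand) had 123 and 114 CPM with Dox against 137 and 139 CPM without, a log2 fold change of -0.22 (SE 0.057, adjusted p = 0.0086). Mcm5 (ENSMUSG00000005410, chr8:75109528-75128439, plus strand) had 114 and 104 CPM with Dox against 120.3 and 127 CPM without, a log2 fold change of -0.18 (SE 0.056, adjusted p = 0.031). Gins4 (ENSMUSG00000031546, chr8:23226610-23237668, minus strand), the SLD5 subunit of GINS, had 23.4 and 21.1 CPM with Dox against 28.8 and 26.9 CPM without, a log2 fold change of -0.30 (SE 0.092, adjusted p = 0.026). The libraries of both treatments did not overlap in any of the 3 genes, whose levels fell by 11.9 to 19.03% with Dox. All 3 calls were lost without replicate 2 of the Dox libraries and without replicate 2 of those without Dox, and that of Gins4 also with DESeq2 and without replicate 1 of the libraries without Dox. The adjusted p over 14 alternatives ran from 0.004 to 0.21 for Mcm6, from 0.022 to 0.45 for Mcm5 and from 0.016 to 0.24 for Gins4.

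**Figure D2:**
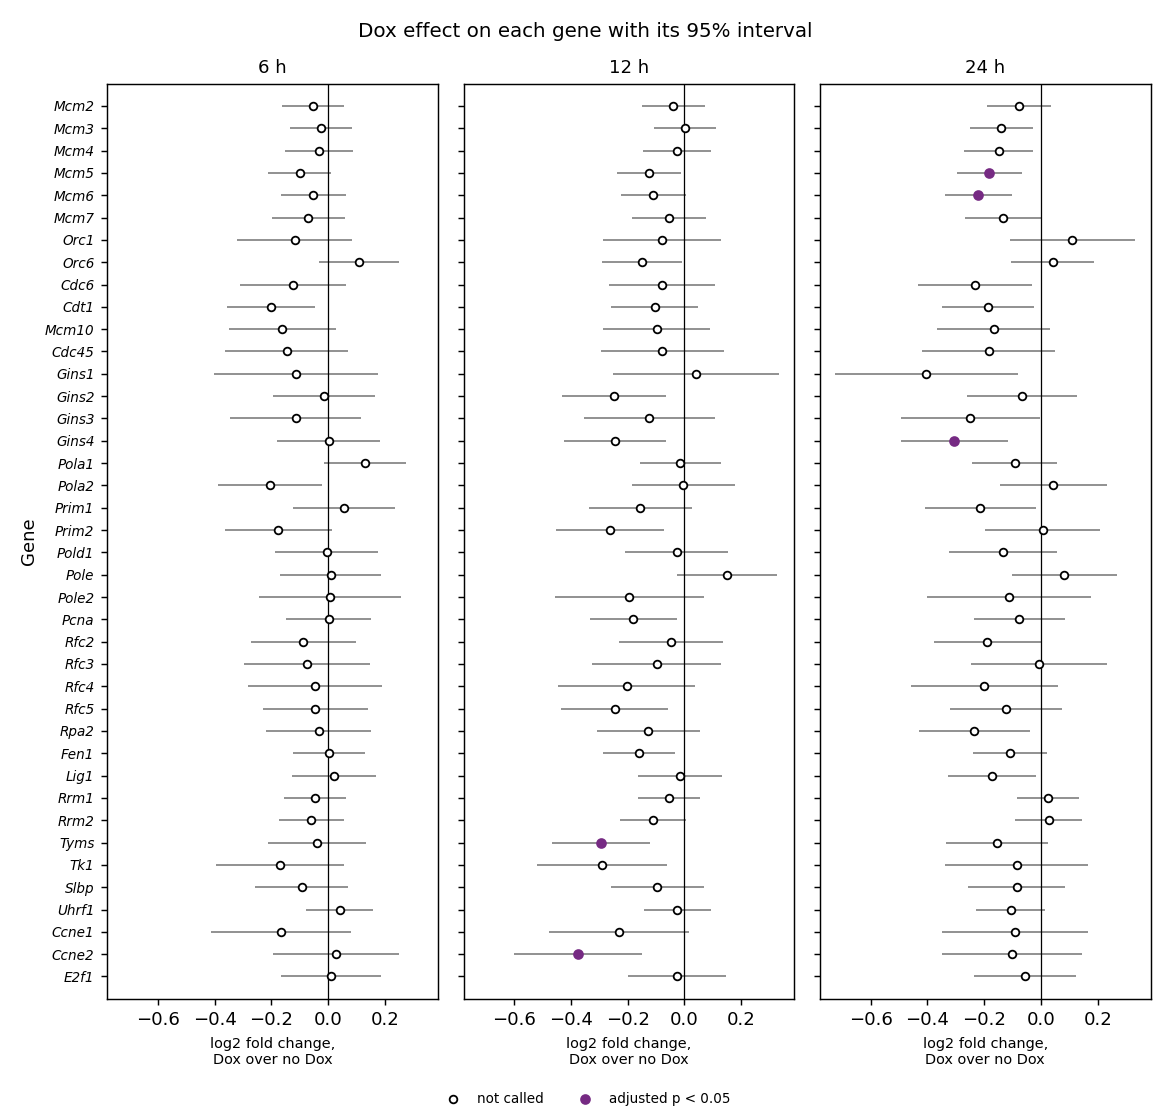
Log2 fold change of Dox over no Dox for each of the 40 genes (rows) at 6, 12 and 24 h (panels), with bars for the 95% interval and filled points for an adjusted p under 0.05. Tyms and Ccne2 at 12 h and Mcm5, Mcm6 and Gins4 at 24 h are filled, and most other points lie slightly left of 0 with bars that reach or nearly reach it.

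Most of the other genes lay slightly below their level without Dox, without passing the test. The log2 fold change was below 0 in 28 of the 40 genes at 6 h, 37 at 12 h and 33 at 24 h, against 48.3%, 52.2% and 52% of all tested genes. With the called ones included, 11 of the 40 genes had an unadjusted p under 0.05 at 12 h and 14 at 24 h. Of all 15347 tested genes, 3076 and 3277 did. The libraries with Dox all lay below those without in 25 of the 40 genes at 12 h, against 25.7% of all, and in 24 at 24 h, against 26%. The 40 genes are read from the same 4 libraries at each hour, so these counts are no independent observations. The summed level of the 40 genes was 2798 to 2850 CPM with Dox against 2896 to 2903 CPM without at 6 h. It was 2410 to 2452 CPM with Dox against 2572 to 2618 CPM without at 12 h, and 1947 to 2045 CPM with Dox against 2133 to 2163 CPM without at 24 h. Among the genes not called, Gins1, another GINS subunit, had the lowest value at 24 h, 6.30 and 4.81 CPM with Dox against 6.58 and 8.22 CPM without and a log2 fold change of -0.40 (SE 0.16, adjusted p = 0.11). At 12 h it was Tk1, with 15.4 and 12.9 CPM with Dox against 16.7 and 18.1 CPM without and a log2 fold change of -0.29 (SE 0.11, adjusted p = 0.13). The 95% interval lay within -0.5 to 0.5 for 38 of the 40 genes at 12 h and for 39 at 24 h.

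Whether the Dox effect differed between hours was tested as an interaction, which is the same as testing whether the change with time differed between cells with and without Dox. None of the 40 genes was called, neither for 12 h against 6 h, where 0.417% of all tested genes were, nor for 24 h against 12 h, where 1.21% were. At an unadjusted p under 0.05 there were 3 genes for 12 h against 6 h, Orc6, Ccne2 and Tyms. For 24 h against 12 h there was 1, Gins1. Of all 15347 tested genes, 1563 and 1645 had such a p. DESeq2 and limma called 0 in both. For Ccne2 the Dox effect at 12 h minus that at 6 h was -0.40 (SE 0.16, adjusted p = 0.31) in log2, with an interval of -0.72 to -0.08. The corresponding value was -0.26 (SE 0.12, adjusted p = 0.46) for Tyms and -0.26 (SE 0.097, adjusted p = 0.29) for Orc6. A Dox effect present at 1 hour and past the threshold there was thus not shown to differ from that at the neighbouring hour for any of the 40 genes.

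The fall with time was compared step by step, from 6 to 12 h and from 12 to 24 h, separately with and without Dox. With Dox, 22 of the 40 genes were lower at 12 h than at 6 h, against 10.1% of all tested genes called lower and 18.9% called in either direction. From 12 to 24 h, 28 were lower, against 5.98% called lower and 13.8% in either direction. Without Dox, 7 were lower from 6 to 12 h, against 3.07% called lower and 7.46% in either direction, and 29 from 12 to 24 h, against 10.2% and 22.4%. The median log2 fold change was -0.23 and -0.33 for the steps with Dox and -0.18 and -0.28 for those without, while the median over all tested genes lay within 0.01 of 0 at each step. The number called from 6 to 12 h with Dox was 8 without replicate 2 of the Dox libraries at 6 h and 10 with limma, and without Dox it was 3 to 4 when any of the 4 libraries was left out. From 12 to 24 h it was 15 with Dox without replicate 1 of the 12 h or replicate 2 of the 24 h libraries with Dox, and 19 without Dox without replicate 1 of the 12 h or replicate 2 of the 24 h libraries without Dox.

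**Figure D3:**
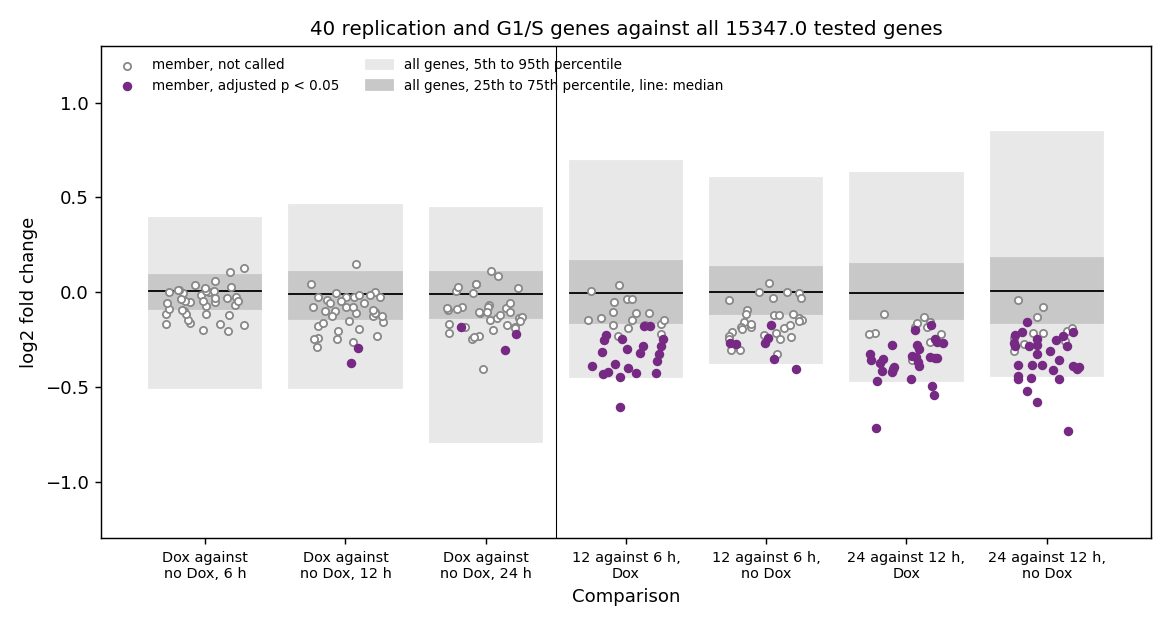
Log2 fold changes of the 40 genes (points, filled where the adjusted p is under 0.05) in the 3 comparisons of Dox over no Dox (left) and the 4 steps of later over earlier hour (right), over grey bars for the 5th to 95th and 25th to 75th percentiles of all 15347 tested genes. On the left, 13, 14 and 17 of the 40 points lie below the lower quartile of all genes at 6, 12 and 24 h. On the right, at least 28 of the 40 lie below it at each step.

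Of the 40 genes, 36 were lower in at least 1 of the 4 steps, against 17.7% of all tested genes. The 4 that were not are Pola2, Rfc2, Ccne1 and E2f1. From 6 to 12 h, 7 genes were lower in both courses, against 1.94% of all tested genes, namely Mcm5, Mcm7, Orc1, Pole2, Pcna, Rrm1 and Rrm2. From 12 to 24 h, 22 were lower in both, against 3.53% of all. Mcm5, Mcm7, Pcna and Rrm2 were lower in all 4 steps, against 0.782% of all tested genes, where consecutive steps share their 12 h libraries. Every library at 24 h lay below every library at 6 h in 40 of the 40 genes with Dox, against 33.8% of all tested genes, and in 38 of the 40 without Dox, against 33.9%, with Rfc2 and E2f1 as the exceptions. All libraries stepped down at both hours without overlap in 31 of the 40 with Dox, against 11.7% of all, and in 31 of the 40 without Dox, against 12.2%.

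The MCM2-7 helicase, which unwinds DNA at the fork, is encoded by 6 of the genes. Mcm5 had 177 and 180.4 CPM at 6 h, 147 and 144 CPM at 12 h and 114 and 104 CPM at 24 h with Dox. Without Dox, Mcm5 had 189 and 194 CPM at 6 h, 162 and 156 CPM at 12 h and 120.3 and 127 CPM at 24 h. It fell at every step and in every alternative tried, with log2 fold changes of -0.30 (SE 0.054, adjusted p = 0.00024) and -0.42 (SE 0.056, adjusted p = 4.4e-06) for the steps with Dox and -0.27 (SE 0.054, adjusted p = 0.0014) and -0.36 (SE 0.055, adjusted p = 1.7e-05) for those without. Mcm7 had 93.8 and 89.9 CPM at 6 h, 78.3 and 75.4 CPM at 12 h and 61.1 and 61.6 CPM at 24 h with Dox. Without Dox, Mcm7 had 93.2 and 99.9 CPM at 6 h, 80.3 and 79.7 CPM at 12 h and 63.6 and 70.2 CPM at 24 h. It was also lower at all 4 steps, the first of them without Dox at -0.27 (SE 0.063, adjusted p = 0.0069). Its gene shares bases with Cops6 on the opposite strand, which was not called at any step. Mcm6 had 174 and 165 CPM at 6 h, 148 and 151 CPM at 12 h and 123 and 114 CPM at 24 h with Dox. Without Dox, Mcm6 had 168 and 184 CPM at 6 h, 159 and 164 CPM at 12 h and 137 and 139 CPM at 24 h. Its log2 fold change from 12 to 24 h was -0.33 (SE 0.057, adjusted p = 0.00012) with Dox and -0.22 (SE 0.056, adjusted p = 0.0041) without.

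The other 3 helicase genes kept a larger share of their 6 h levels. Mcm2 had 186 and 176 CPM at 6 h, 163 and 165 CPM at 12 h and 147 and 144 CPM at 24 h with Dox. Without Dox, Mcm2 had 179 and 197 CPM at 6 h, 169 and 167 CPM at 12 h and 153 and 154 CPM at 24 h. In both courses the 24 h libraries were the lowest. Mcm3 had 178 and 174 CPM at 6 h, 165 and 160.0 CPM at 12 h and 138 and 126 CPM at 24 h with Dox. Without Dox, Mcm3 had 179.8 and 178 CPM at 6 h, 161 and 164 CPM at 12 h and 147 and 144 CPM at 24 h. The 24 h libraries with Dox, 138 and 126 CPM, were the lowest of the 12. Mcm4 had 199 and 173 CPM at 6 h, 173 and 169 CPM at 12 h and 149 and 149 CPM at 24 h with Dox. Without Dox, Mcm4 had 184 and 196 CPM at 6 h, 177 and 173 CPM at 12 h and 161 and 169.8 CPM at 24 h. Its Dox libraries at 6 h were the farthest apart of the 6 groups. After 24 h these genes stood at 80.1%, 74.9% and 80.3% of their 6 h means with Dox and at 81.4%, 81.5% and 87.1% without, in that order. For Mcm5 the same values were 60.7% with Dox and 64.4% without. All 6 helicase genes were called lower from 12 to 24 h with Dox, against 5.98% of all tested genes, and 4 without, against 10.2%. The others without Dox were Mcm2 (-0.13, SE 0.054, adjusted p = 0.079) and Mcm4 (-0.08, SE 0.059, adjusted p = 0.38). The same shares apply to the counts by role below, with 10.1% and 3.07% from 6 to 12 h with and without Dox. At 24 h, Mcm3 and Mcm4 were not called between Dox and no Dox, with log2 fold changes of -0.14 (SE 0.054, adjusted p = 0.11) and -0.15 (SE 0.059, adjusted p = 0.12).

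**Figure D4:**
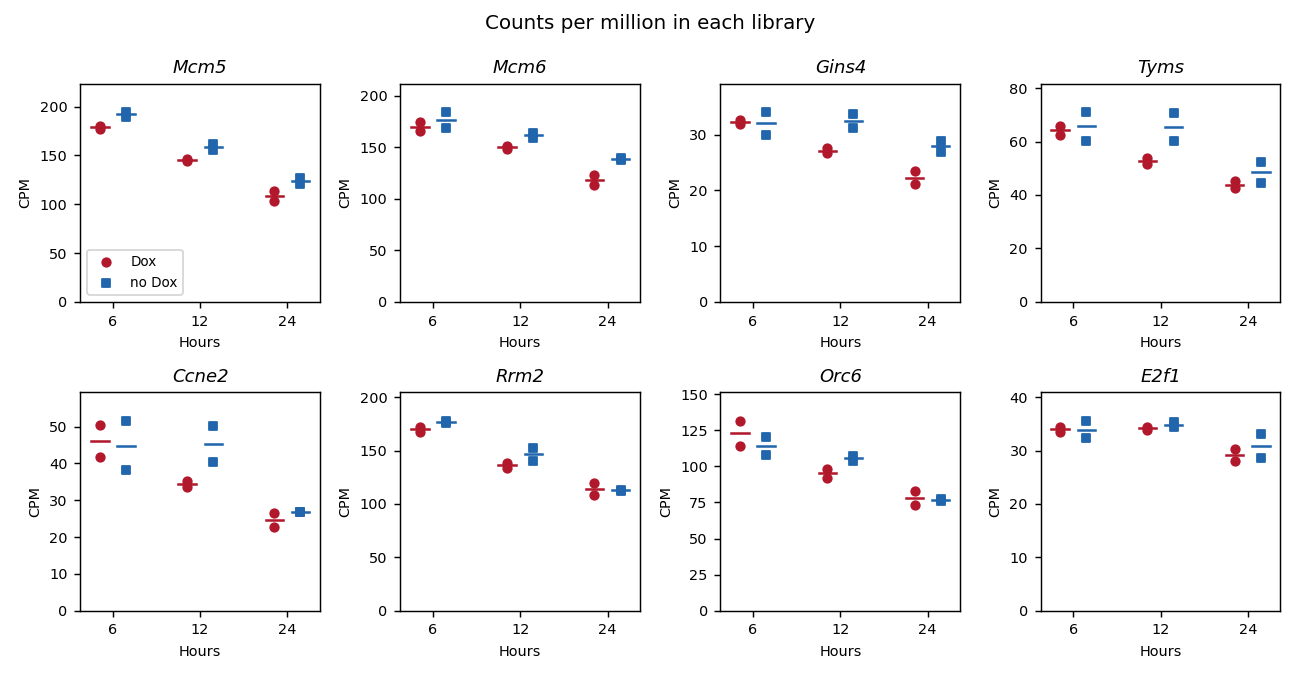
CPM in each library (points, y axis from 0) at 6, 12 and 24 h for 8 of the genes, with Dox (red circles, left) and without (blue squares, right), and the group means as lines. Mcm5, Mcm6, Rrm2 and Orc6 step down with time in both treatments, Tyms and Ccne2 are separated by Dox at 12 h, and E2f1 stays between 28.1 and 35.6 CPM in all 12 libraries.

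The licensing factors followed the helicase. Orc6 had 114 and 132 CPM at 6 h, 92.3 and 98.2 CPM at 12 h and 83.1 and 73.6 CPM at 24 h with Dox. Without Dox, Orc6 had 120.2 and 108 CPM at 6 h, 107 and 104 CPM at 12 h and 77.2 and 76.2 CPM at 24 h. The log2 fold change was -0.38 (SE 0.069, adjusted p = 0.00022) from 6 to 12 h with Dox and -0.46 (SE 0.070, adjusted p = 1.5e-05) from 12 to 24 h without. Orc1, the largest ORC subunit, had 24.5 and 23.4 CPM at 6 h, 18.7 and 19.8 CPM at 12 h and 16.4 and 15.3 CPM at 24 h with Dox. Without Dox, Orc1 had 25.6 and 26.2 CPM at 6 h, 22.4 and 18.7 CPM at 12 h and 15.4 and 14.4 CPM at 24 h, and was 1 of the 7 genes lower from 6 to 12 h without Dox, at -0.35 (SE 0.10, adjusted p = 0.027). Cdc6, the ATPase that loads MCM2-7, had 42.3 and 43.2 CPM at 6 h, 40.7 and 36.6 CPM at 12 h and 29.9 and 22.2 CPM at 24 h with Dox. Without Dox, Cdc6 had 46.4 and 46.9 CPM at 6 h, 39.7 and 42.2 CPM at 12 h and 31.2 and 31.4 CPM at 24 h. Replicate 2 of the Dox libraries at 24 h was the lowest of the 12, and the log2 fold change from 12 to 24 h with Dox was -0.54 (SE 0.095, adjusted p = 0.00016). Cdt1 reached 74.8% of its 6 h level after 24 h with Dox and 74.5% without. All 4 licensing genes were called lower from 12 to 24 h without Dox, and 3 of them, not Orc1, with Dox.

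Of the genes that activate the helicase, all 6 (Mcm10, Cdc45, Gins1, Gins2, Gins3 and Gins4) were called lower from 12 to 24 h with Dox, and Mcm10, Cdc45 and Gins2 without. Gins4 had 31.8 and 32.7 CPM at 6 h, 27.6 and 26.7 CPM at 12 h and 23.4 and 21.1 CPM at 24 h with Dox. Without Dox, Gins4 had 34.0 and 29.9 CPM at 6 h, 33.6 and 31.2 CPM at 12 h and 28.8 and 26.9 CPM at 24 h. Gins2 had 39.4 and 49.3 CPM at 6 h, 32.2 and 35.2 CPM at 12 h and 27.0 and 25.6 CPM at 24 h with Dox. Without Dox, Gins2 had 44.5 and 46.3 CPM at 6 h, 40.2 and 39.5 CPM at 12 h and 26.8 and 28.3 CPM at 24 h, and its log2 fold change from 12 to 24 h without Dox was -0.52 (SE 0.091, adjusted p = 8.8e-05). Gins2 overlaps Gse1 on the opposite strand, and Gse1, whose counts are 272% of those of Gins2, was lower with Dox at all 3 hours (log2 -0.46, -0.23 and -0.43) but was not called from 12 to 24 h in either course. The log2 fold change of Gins1 from 12 to 24 h with Dox, -0.72 (SE 0.15, adjusted p = 0.0014), had the largest size among the 40 genes at that step, at a mean count of 204 per library.

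Among polymerases and primase, Pole2, the second subunit of polymerase epsilon, showed the deepest fall with Dox of all 40 genes over the 24 h course. It had 13.3 and 15.0 CPM at 6 h, 9.75 and 8.79 CPM at 12 h and 7.55 and 6.89 CPM at 24 h with Dox. Without Dox, Pole2 had 14.0 and 14.5 CPM at 6 h, 11.1 and 10.4 CPM at 12 h and 8.51 and 7.49 CPM at 24 h, so that the 24 h means stood at 51.1% of the 6 h mean with Dox and at 56.2% without. The change from 6 to 12 h was -0.61 (SE 0.13, adjusted p = 0.00097) with Dox and -0.41 (SE 0.13, adjusted p = 0.045) without. Prim1, the catalytic primase subunit, was lower with Dox at both steps, -0.40 (SE 0.088, adjusted p = 0.0016) and -0.47 (SE 0.093, adjusted p = 0.00069), while Pola2 was not called at any step. Of these 7 genes, 3 were called lower from 6 to 12 h and 4 from 12 to 24 h with Dox, and 1 and 5 without.

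PCNA, the clamp that holds polymerases on DNA, had 62.2 and 68.7 CPM at 6 h, 49.0 and 48.8 CPM at 12 h and 40.2 and 40.6 CPM at 24 h with Dox. Without Dox, Pcna had 68.5 and 62.0 CPM at 6 h, 59.0 and 52.7 CPM at 12 h and 43.3 and 42.0 CPM at 24 h. The log2 fold change from 6 to 12 h was -0.42 (SE 0.074, adjusted p = 0.00014) with Dox, the smallest adjusted p of the 40 genes at that step, and -0.24 (SE 0.074, adjusted p = 0.041) without Dox. The table also lists the pseudogenes Pcna-ps1 and Pcna-ps2, so reads of near-identical copies may be shared. Rfc5, a subunit of the clamp loader, was lower from 6 to 12 h with Dox, at -0.45 (SE 0.092, adjusted p = 0.00082). Wsb2, which it overlaps on the opposite strand, was not called at that step and was higher from 12 to 24 h in both courses. Rfc2, another subunit, stood apart and had 34.4 and 38.5 CPM at 6 h, 36.1 and 39.5 CPM at 12 h and 33.1 and 33.1 CPM at 24 h with Dox. Without Dox, Rfc2 had 41.8 and 35.4 CPM at 6 h, 38.0 and 39.5 CPM at 12 h and 41.2 and 35.1 CPM at 24 h. It ended at 90.8% of its 6 h mean with Dox and at 99.0% without, the highest of the 40 genes in both courses, and was called at no step. Rpa2, a subunit of the protein that coats single-stranded DNA, was lower from 12 to 24 h with Dox, at -0.50 (SE 0.094, adjusted p = 0.00043). Fen1 and Lig1, the flap nuclease and the ligase that finish Okazaki fragments, were both lower from 6 to 12 h with Dox and from 12 to 24 h without.

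The genes of nucleotide supply were lower at most steps. All 4 (Rrm1, Rrm2, Tyms and Tk1) were called lower from 6 to 12 h with Dox and from 12 to 24 h without, 3 from 12 to 24 h with Dox and 2 from 6 to 12 h without. Rrm2, the subunit of ribonucleotide reductase whose level sets its S phase activity, had 168 and 172 CPM at 6 h, 134 and 138 CPM at 12 h and 119.9 and 109 CPM at 24 h with Dox. Without Dox, Rrm2 had 176 and 178 CPM at 6 h, 141 and 152 CPM at 12 h and 112 and 113 CPM at 24 h. Its log2 fold change from 12 to 24 h without Dox, -0.38 (SE 0.057, adjusted p = 1.0e-05), had the smallest adjusted p of the 40 genes at that step, and at 24 h the libraries of both treatments overlapped. Tyms had 62.6 and 66.0 CPM at 6 h, 53.8 and 51.6 CPM at 12 h and 45.3 and 42.5 CPM at 24 h with Dox. Without Dox, Tyms had 71.0 and 60.3 CPM at 6 h, 70.5 and 60.3 CPM at 12 h and 44.5 and 52.5 CPM at 24 h. Its libraries without Dox overlapped between 6 and 12 h, with a change of -0.03 (SE 0.084, adjusted p = 0.9), whereas with Dox the change was -0.29 (SE 0.085, adjusted p = 0.017); the difference between these is the interaction given above, which did not pass the test. Tk1 had the lowest share of its 6 h level left after 24 h without Dox, 53.5%, and 57.2% with Dox. Uhrf1, which carries DNA methylation over to the new strand, was lower from 12 to 24 h in both courses, at -0.37 (SE 0.059, adjusted p = 5.0e-05) with Dox and -0.29 (SE 0.058, adjusted p = 0.00058) without. Slbp, which binds the ends of histone mRNAs, was called lower from 6 to 12 h with Dox (-0.25, SE 0.080, adjusted p = 0.028) and from 12 to 24 h without (-0.23, SE 0.082, adjusted p = 0.037).

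The 3 G1/S regulators differed among themselves. Ccne2 had 41.9 and 50.3 CPM at 6 h, 35.2 and 33.5 CPM at 12 h and 26.6 and 22.8 CPM at 24 h with Dox. Without Dox, Ccne2 had 51.5 and 38.1 CPM at 6 h, 50.1 and 40.5 CPM at 12 h and 26.8 and 26.9 CPM at 24 h. With Dox it was lower at both steps, -0.43 (SE 0.11, adjusted p = 0.006) and -0.46 (SE 0.12, adjusted p = 0.0066). Without Dox the libraries overlapped between 6 and 12 h (-0.03, SE 0.11, adjusted p = 0.93), and the log2 fold change from 12 to 24 h was -0.73 (SE 0.11, adjusted p = 1.9e-05), the largest in size among the 40 genes at that step. At 24 h the log2 fold change of Dox over no Dox was -0.10 (SE 0.12, adjusted p = 0.7). Ccne1, encoding cyclin E1, had 15.7 and 15.7 CPM at 6 h, 13.7 and 12.8 CPM at 12 h and 13.6 and 10.4 CPM at 24 h with Dox. Without Dox, Ccne1 had 18.2 and 16.8 CPM at 6 h, 16.3 and 15.3 CPM at 12 h and 11.9 and 13.9 CPM at 24 h. E2f1, an activating E2F factor, had 34.5 and 33.5 CPM at 6 h, 33.9 and 34.5 CPM at 12 h and 30.2 and 28.1 CPM at 24 h with Dox. Without Dox, E2f1 had 32.3 and 35.6 CPM at 6 h, 35.4 and 34.3 CPM at 12 h and 33.1 and 28.6 CPM at 24 h. Neither Ccne1 nor E2f1 was called at any hour or step, and the changes of E2f1 from 12 to 24 h were -0.22 (SE 0.086, adjusted p = 0.091) with Dox and -0.19 (SE 0.086, adjusted p = 0.11) without.

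Genes of the same pathway outside the 40 were read from lists written from general knowledge, with earlier results of these data known. Of 45 other replication genes, 17 and 25 were called lower at the steps with Dox and 13 and 22 at those without, and none was called higher. Over all tested genes, 10.1% and 5.98% were called lower at the steps with Dox and 3.07% and 10.2% at those without. Between Dox and no Dox, 0 of the 45 were called at 6 h, 3 lower at 12 h, where 3.51% of all tested genes were called lower, and 0 at 24 h. The 3 were Orc2, an ORC subunit (-0.22, SE 0.062, adjusted p = 0.026), Tipin, a fork protection factor (-0.28, SE 0.085, adjusted p = 0.047), and Dck, a salvage kinase (-0.21, SE 0.067, adjusted p = 0.049). Of 14 alternatives, 5 lost the call of Orc2, 9 that of Tipin and 12 that of Dck, where the adjusted p ran from 0.043 to 0.25. Of 20 mitosis genes, 8 and 19 were called lower at the steps with Dox and 10 and 16 at those without, where all tested genes gave 10.1% and 5.98% with Dox and 3.07% and 10.2% without. At 24 h with Dox against no Dox, 2 of the 20 were called lower, against 6.52% of all tested genes. They were the proliferation marker Mki67 (-0.33, SE 0.062, adjusted p = 0.00028) and the spindle gene Nusap1 (-0.27, SE 0.070, adjusted p = 0.0072), and both calls were lost without replicate 2 of the libraries without Dox, that of Nusap1 also without replicate 2 of those with Dox. The summed level of the mitosis genes was 2009 to 2060 CPM with Dox against 2155 to 2253 CPM without at 24 h.

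**Figure D5:**
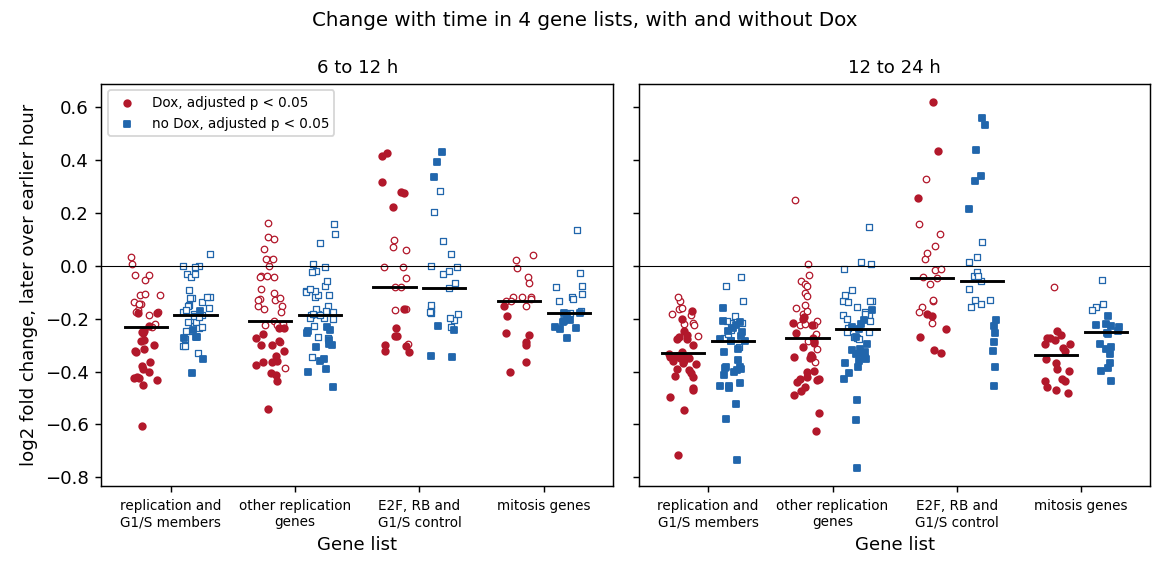
Log2 fold change of the later over the earlier hour for each gene (points, filled where the adjusted p is under 0.05) of 4 lists, with Dox (red circles, left) and without (blue squares, right), and the list medians as lines, from 6 to 12 h (left panel) and from 12 to 24 h (right panel). The 40 replication and G1/S genes, the other replication genes and the mitosis genes have medians from -0.34 to -0.13, while the E2F, RB and G1/S control genes spread to both sides of 0.

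The 25 E2F, RB and G1/S control genes did not move as 1 group. With Dox, 6 were called higher and 8 lower from 6 to 12 h, and 3 higher and 6 lower from 12 to 24 h. Of all tested genes, 18.9% and 13.8% were called in either direction at these steps. Without Dox, 3 of the 25 were called higher and 4 lower, then 6 higher and 7 lower, against 7.46% and 22.4% of all tested genes in either direction. Rb1, which encodes the RB protein that restrains E2F, had 33.7 and 38.8 CPM with Dox against 27.1 and 26.2 CPM without at 6 h. It was higher with Dox at 6 h, 0.45 (SE 0.094, adjusted p = 0.0063), and at 12 h, 0.43 (SE 0.088, adjusted p = 0.0022). Mycn, a MYC family factor that promotes proliferation, had 188 and 209.8 CPM with Dox against 137 and 137 CPM without at 24 h, and was higher with Dox at 12 h, 0.27 (SE 0.061, adjusted p = 0.0063), and at 24 h, 0.53 (SE 0.063, adjusted p = 2.3e-07). E2f2, an activating E2F factor, had 13.1 and 12.3 CPM with Dox against 20.0 and 17.9 CPM without at 24 h, and was lower with Dox at 6 h, -0.53 (SE 0.13, adjusted p = 0.029), and at 24 h, -0.56 (SE 0.12, adjusted p = 0.0013). Ccnd3, a D-type cyclin, was lower with Dox at 6 h, -0.25 (SE 0.050, adjusted p = 0.0038), and at 24 h, -0.29 (SE 0.049, adjusted p = 9.5e-05). Cdk2, the kinase partner of cyclin E, was higher with Dox at 12 h, 0.29 (SE 0.065, adjusted p = 0.0053), where its partner gene Ccne2 was lower. Ccnd2 at 12 h, -0.15 (SE 0.047, adjusted p = 0.047), and the repressor E2f8 at 24 h, -0.22 (SE 0.071, adjusted p = 0.037), were lower with Dox. At 24 h the calls of Mycn, E2f2 and Ccnd3 held in all 14 alternatives, while 6 of 14 lost that of E2f8, among them DESeq2 and limma. The 12 h calls were lost in 3 alternatives for Rb1, 2 for Cdk2, 4 for Mycn and 9 for Ccnd2, in each case also by leaving out at least 1 of the 12 h libraries. At 6 h, the call of E2f2 was lost when any 1 of the 4 libraries was left out and with limma, that of Rb1 in 5 alternatives and that of Ccnd3 in 2.

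Markers of other cell types differed between Dox and no Dox, those of myeloid cells and megakaryocytes most of all at 24 h. At 24 h, 6.52% of all tested genes were called lower with Dox. All 7 myeloid markers were called lower with Dox at 24 h, and they summed to 36.7 to 44.8 CPM with Dox against 136 to 142 CPM without. At 6 h the sums were 23.9 to 25.8 CPM with Dox against 35.7 to 38.6 CPM without. All 5 megakaryocyte markers were called lower at 24 h, with sums of 64.8 to 65.0 CPM with Dox against 112 to 114 CPM without. Of the 6 erythroid markers tested, 5 were called lower with Dox at 24 h, and the median log2 fold change was -1.38. The embryonic globin gene Hbb-y was called higher, with 396 and 343 CPM with Dox against 335 and 284 CPM without, and it made up most of the erythroid sum of 414 to 472 CPM with Dox against 515 to 578 CPM without. At 12 h the erythroid sum was instead higher with Dox, 458 to 479 CPM against 242 to 334 CPM without. Hbb-y then had 390 and 378 CPM with Dox against 152 and 126 CPM without. Of the 5 smooth muscle and mesenchyme markers, 3 were called lower at 24 h (Col1a1, Postn and Pdgfrb). The other 2 were not called and had slightly higher means with Dox, Acta2 with 5347 CPM against 5203 CPM and Tagln with 732 CPM against 692 CPM. All 5 summed to 8822 to 8868 CPM with Dox against 9382 to 9650 CPM without, and Acta2 made up most of this. Of the 7 endothelial markers, 4 were called higher with Dox at 24 h (Cdh5, Pecam1, Tek and Esam), as were 690 of all 15347 tested genes. The other 3 were not called. Among these, Kdr had a higher mean with Dox (470 CPM against 439 CPM), and Emcn (6.57 CPM against 7.63 CPM) and Cldn5 (46.1 CPM against 51.1 CPM) had lower ones. No marker was at 0 in every library, and the pluripotency markers summed to at most 3.34 CPM. The part of these cell types in the fall of the 40 genes with time, or in the small difference between Dox and no Dox, was not tested.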

How the data were processed

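RNA was measured in 12 libraries. Per the labels' protocols they were prepared strand-specifically from 200 ng of RNA, amplified for 14 cycles and read as single ends of 75 bases. According to the submitters' processing notes, the genome was GRCm38 and the tools were SAMtools 0.1.19, Bowtie2 2.21, edgeR 3.8.5, R 3.1.0 and bcl2fastq 2.16.0.10. The sources used here name neither the read counter nor its strand setting or annotation. The deposited table holds the authors' whole-number counts per gene, not normalized, and their RPKM values, whose library factors lay within 1.13% of the effective library sizes used here.

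The counts were fitted in edgeR 4.0.16 (R 4.3.3) after filterByExpr (minimum count 10) and TMM scaling. The quasi-likelihood model gave each of the 6 groups a mean and had 6 residual degrees of freedom (biological coefficient of variation 4.71%). The Benjamini-Hochberg adjustment ran over 15347 genes with a threshold of 0.05. CPM use the effective library size. SE comes from the F statistic (log2 fold change over its root). Dox was compared with no Dox at each hour, these effects were compared between hours, and consecutive hours were compared within each treatment. Replicates differed by more than counting noise (chi-square per degree of freedom 2.63 to 4.61). The method was tested on simulated counts.

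The 40 genes and all lists were chosen with earlier results of these data known. Any of the 40 may be named. Values per library are given for genes called between Dox and no Dox, the MCM2-7 genes, the G1/S regulators and up to 5 genes per step by adjusted p, and up to 4 called genes per comparison are named from each other list. Other genes were picked for display after their values were seen. Alternatives were other scalings and filters, DESeq2 1.42.0, limma 3.58.1 on log2(RPKM + 0.5) and log2(RPKM + 0.1), only the libraries compared, a replicate block and leaving out each library. A block for deep against shallow libraries was added after seeing the data.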

Additional observations from a re-analysis of the deposited data

Results flagged for a closer look

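The Dox effect differed between hours, by the interaction test in edgeR's quasi-likelihood fit, for 2 of the genes named above, neither of them among the 40. For Sox7, the induced gene, the effect at 12 h exceeded that at 6 h by 0.57 in log2 (SE 0.090, adjusted p = 0.0012), and all 4 libraries with Dox lay above all 4 without at these hours. For Mki67, a proliferation marker of the mitosis list, the effect at 24 h minus that at 12 h was -0.34 (SE 0.087, adjusted p = 0.046). Mki67 had 314 and 311 CPM with Dox against 371 and 413 CPM without at 24 h, and 424 and 395 CPM with Dox against 443 and 375 CPM without at 12 h.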

How the results depend on the processing

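No direction of a called value reversed. Of 4306 values of single genes recomputed, 3981 kept their side of the threshold, 311 lost a call and 14 gained one. The number of the 40 genes called (count in the report in brackets) changed as follows. For Dox against no Dox at 12 h (2) it was 0 with DESeq2 and with limma at both pseudocounts, and 0 to 2 when 1 library was left out. At 24 h (3) it was 0 to 5 when 1 library was left out. For 6 to 12 h with Dox (22) it was 10 with limma at both pseudocounts and 8 to 14 with 1 library left out. For 6 to 12 h without Dox (7) it was 4 with DESeq2, 3 with limma at both pseudocounts and 3 to 4 with 1 library left out. For 12 to 24 h it was 15 to 22 with Dox (28) and 19 to 26 without (29) when 1 library was left out. The median log2 fold change of the 40 genes with 1 library left out ran from -0.14 to -0.073 at 24 h, and for the Dox effect at 24 h minus that at 12 h from -0.076 to 0.010, on both sides of 0. It ran from -0.26 to -0.18 for 6 to 12 h with Dox, from -0.37 to -0.28 for 12 to 24 h with Dox and from -0.34 to -0.27 for 12 to 24 h without Dox. Over all alternatives, genes called numbered 72 to 342 at 6 h (236), 354 to 1233 at 12 h (1038) and 1084 to 1743 at 24 h (1690). They numbered 4 to 255 (64) and 6 to 356 (185) for the differences between Dox effects at 12 h against 6 h and 24 h against 12 h, where no alternative called any of the 40. For the steps they numbered 1023 to 2918 (2906) and 1052 to 2196 (2121) with Dox and 401 to 1193 (1145) and 2103 to 3435 (3440) without. Of the calls by step, 5 of 22, 12 of 28, 1 of 7 and 12 of 29 held in all 13 alternatives. With the replicate number as a block, the counts were 0, 2 and 3 at the 3 hours, 22 and 28 with Dox and 6 and 30 without, and with a block for depth 0, 2 and 3, 21 and 27, and 6 and 29. Deviations of same-numbered libraries correlated at -0.27, 0.074 and 0.066 at the 3 hours, so the numbers were not taken to pair the samples. The cause of these changes was not tested.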
